A study of Mus musculus with 12 samples.

Results

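Trh, the gene of thyrotropin-releasing hormone, was followed together with 8 genes that carry, convert, sense or answer thyroid hormone in the brain: Dio2, Thra, Thrb, Klf9, Slco1c1, Crym, Ttr and Hr. They were taken by symbol from a table of counts per gene, where all 9 were found among 24020 genes. RNA came from the hypothalamus of 12 mice of the Wfs1 mutant line Wfs1tm1Koks: 4 wild-type, 4 heterozygous and 4 homozygous for the mutant allele. The product of Wfs1, wolframin, sits in the membrane of the endoplasmic reticulum, and people who lack it develop Wolfram syndrome. All mice carry the same strain name, wild-type mice included, no treatment is named, and sex and age are not given in the labels used here. Hypothalami were dissected out and frozen, so each library mixes neurons, glia, vessels and the lining of the third ventricle.

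TRH is made by neurons of the paraventricular nucleus as a precursor that is cut into many copies of a very short peptide, and it drives the pituitary to release thyrotropin, which drives the thyroid. Thyroid hormone feeds back on these neurons: glia and the tanycytes that line the third ventricle take up thyroxine and turn it into the active hormone triiodothyronine with the deiodinase that Dio2 encodes. The receptors encoded by Thra and Thrb then raise some genes, Klf9 and Hr among them, and lower others, Trh among them.

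The promoters of the members called below show how different these genes are at their starts. RefSeq promoter entries (GRCm38.p6, the same build as mm10) were read for 5 of the 9 genes: Trh, Slco1c1, Dio2, Thrb (with 2 starts) and Klf9. The promoter of Ttr was not searched. Shown are the 250 bases before the start of Trh (chr6:92244651-92244900, minus strand), Dio2 (chr12:90739039-90739288, minus strand) and Klf9 (chr19:23140976-23141225, plus strand), the genes of this set called between homozygous and wild-type mice for which an entry was matched. Capitals mark letters that match one of the motifs searched on both strands.
Trh: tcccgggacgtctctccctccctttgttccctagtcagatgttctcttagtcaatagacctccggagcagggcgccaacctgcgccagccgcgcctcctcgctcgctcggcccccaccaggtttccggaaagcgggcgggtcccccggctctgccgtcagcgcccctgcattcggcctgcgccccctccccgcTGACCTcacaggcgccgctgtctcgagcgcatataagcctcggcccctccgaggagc
Dio2: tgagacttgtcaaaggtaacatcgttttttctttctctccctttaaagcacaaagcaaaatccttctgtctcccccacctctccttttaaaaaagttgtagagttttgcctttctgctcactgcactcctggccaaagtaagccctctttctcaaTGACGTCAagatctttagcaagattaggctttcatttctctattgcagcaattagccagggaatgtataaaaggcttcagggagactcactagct
Klf9: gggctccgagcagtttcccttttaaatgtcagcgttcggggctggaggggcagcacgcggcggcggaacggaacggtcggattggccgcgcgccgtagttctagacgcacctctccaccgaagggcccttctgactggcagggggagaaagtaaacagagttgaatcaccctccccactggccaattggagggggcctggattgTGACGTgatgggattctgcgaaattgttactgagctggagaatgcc
Dio2 carries the full cyclic AMP response element TGACGTCA 95 bases before the start in its promoter entry. This string was found in 1.55% of 32851 promoter windows of this length. The Dio2 window does not adjoin the locus given below, which begins on the minus strand at 90738438. Trh carries a nuclear receptor half-site, AGGTCA read on the other strand, 57 bases before its start (14% of windows). Klf9 carries TGACGT, the first letters of the cyclic AMP response element, 46 bases before its start (6.47% of windows; the full element contains this string on both strands). The DR4 element, a direct repeat of the half-site with 4 bases between, was searched too. It matched none of the windows of these 5 genes and 0.0152% of all windows. The windows hold 68.8% G and C for Trh, 41.6% for Dio2 and 59.6% for Klf9. These are matches of letters only.

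Libraries held 979394 to 2330872 counts. Levels are given in CPM, counts scaled to a common library size, with library sizes adjusted by the TMM factors of edgeR, and differences as log2 fold changes with their standard errors (SE) from edgeR's quasi-likelihood test. A gene was called at an adjusted p under 0.05 over all 10737 genes tested. Wfs1 itself stood at 114 to 167 CPM in wild-type, 81.8 to 103 in heterozygous and 14.8 to 20.1 in homozygous libraries. The last homozygous library, called replicate 5 after its column, is placed in its group by the genotype in its name, since no label carries that number. Its Wfs1 level, 15.8 CPM, lies within the range of the other homozygous libraries. Genotype ran along with base composition: the slope of log2 CPM on the GC content of transcripts, here the GC score of a library, was 0.0274 to 0.32 per 10 percentage points in wild-type, −0.015 to 0.209 in heterozygous and −0.507 to 0.0187 in homozygous libraries. Homozygous replicates 4 and 5 stand apart, with scores of −0.457 and −0.507 and with 95.6 and 85.8 CPM of the ribosomal RNA precursor Rn45s against 316 and 352 in homozygous replicates 1 and 2. The score does not overlap between wild-type and homozygous libraries, so that genotype and composition cannot be told apart by design, and each result below is given with the score as a covariate where that ends the call.

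Between homozygous and wild-type mice, Trh and Thra were about 2-fold lower and Klf9 and Dio2 about 3-fold higher. Of the 9 genes 8 passed the filter on low counts, and 4 of these 8 were called, against 25.4% of all genes tested. Klf9 and Dio2 were higher (13.7% of all genes were called higher), and Trh and Thra were lower (11.6% lower). The median log2 fold change of the 8 was 0.22, and that of all genes tested was −0.03. Thrb, Slco1c1, Ttr and Hr were not called.

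The Trh locus is chromosome 6, 92242061 to 92244650 (minus strand, mm10, as are all positions here). It was counted 27 to 120 times per library. Wild-type libraries held 52.8, 72.3, 87.4 and 59.7 CPM (replicates 1, 2, 3 and 5), heterozygous libraries 37.3, 45.9, 42.5 and 39.4 CPM (replicates 1 to 4), and homozygous libraries 28.8, 31.9, 37.1 and 30.5 CPM (replicates 1, 2, 4 and 5). The lowest wild-type library lies above every mutant library, and the genotypes do not overlap in any of the 3 pairs. CPM did not overlap in 23.6% of all genes tested for homozygous against wild-type, 9.34% for heterozygous against wild-type and 9.48% for homozygous against heterozygous libraries. Trh averaged 68.1 ± 15.2, 41.3 ± 3.75 and 32.1 ± 3.56 CPM (SD, n = 4 each). It fell by 1.08 on the log2 scale in homozygous mice (SE 0.181, adjusted p = 0.00021), a 2.12-fold difference. In heterozygous mice the log2 fold change was −0.71 (SE 0.172, adjusted p = 0.0552), just outside the threshold, and between homozygous and heterozygous mice it was −0.37 (SE 0.185, adjusted p = 0.261). The heterozygous difference was called, with adjusted p of 0.039 to 0.0494, in 6 of 12 fits that left out 1 library, namely wild-type replicate 5, heterozygous replicate 2 or any homozygous replicate. In the remaining fits adjusted p rose to 0.0802 to 0.244, highest without wild-type replicate 3 (log2 fold change −0.56). The homozygous call held with the GC score as a covariate (−0.93, adjusted p = 0.0239) and without homozygous replicates 4 and 5 (−1.14, adjusted p = 0.000329). It ended with a score for adenine content, an alternative chosen after seeing the data (log2 fold change −0.89, adjusted p = 0.0726).

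In bulk tissue, fewer TRH neurons and less Trh RNA per neuron cannot be told apart. Sim1, a transcription factor that paraventricular neurons need, ran at 27.9 to 34.3 CPM in wild-type and 28.3 to 57.7 in homozygous libraries (log2 fold change 0.43, SE 0.231, adjusted p = 0.175). Over the paraventricular and supraoptic markers Sim1, Otp, Avp, Oxt, Crh and Pou3f2, summed levels were 92.4 to 149 CPM in wild-type, 93 to 138 in heterozygous and 95.2 to 109 in homozygous libraries. Trh was the 1 gene called of the 5 tested on that list, where 25.4% of all genes tested were called. Otp, another factor of these neurons, had 12 counts in all 12 libraries together. Avp (vasopressin) reached lower in homozygous mice, at 10.3 to 64.1 CPM in wild-type and 3.3 to 26 in homozygous libraries. So did Oxt (oxytocin), at 22 to 44.1 and 10.7 to 30.2. Both were lowest in homozygous replicates 4 and 5 (Avp 3.3 and 6.77, Oxt 10.7 and 16.9 CPM). Crh, also a hormone gene of the list, reached higher, at 0 to 1.47 CPM in wild-type and 0.824 to 3.39 in homozygous libraries. It had 35 counts in all. Sim1 was called without homozygous replicate 2 (0.62, adjusted p = 0.0399). The part of these neurons in the Trh difference was not tested.

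Klf9, a zinc finger transcription factor that thyroid hormone receptors and the glucocorticoid receptor both induce, had the smallest p of the set. Its locus is chromosome 19, 23141226 to 23168134 (plus strand). Wild-type libraries held 103, 114, 94 and 120 CPM, heterozygous libraries 141, 134, 170 and 186 CPM, and homozygous libraries 286, 224, 347 and 376 CPM, in the order of replicates given for Trh. The genotypes do not overlap in any pair, and the heterozygous libraries lie between the others. The shares of all genes without overlap are those given for Trh, 23.6%, 9.34% and 9.48%. Klf9 averaged 108 ± 11.5, 158 ± 24.5 and 308 ± 67.3 CPM (SD, n = 4 each). It rose by 1.5 on the log2 scale from wild-type to homozygous mice (SE 0.157, adjusted p = 1.48e-06), a 2.84-fold difference. From heterozygous to homozygous mice it rose by 0.96 (SE 0.151, adjusted p = 0.00565), and the step from wild-type to heterozygous was 0.54 (SE 0.158, adjusted p = 0.108). The call between homozygous and wild-type mice held with the GC score (1.05, adjusted p = 8.81e-05), with the adenine score (0.95, adjusted p = 0.00174) and without homozygous replicates 4 and 5 (1.24, adjusted p = 2.85e-07). The call between homozygous and heterozygous mice ended with each of the 3 (0.64, 0.60 and 0.70, adjusted p = 0.0848, 0.217 and 0.0567), settings in which 1 gene of all those tested was called in this pair.

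**Figure D1:**
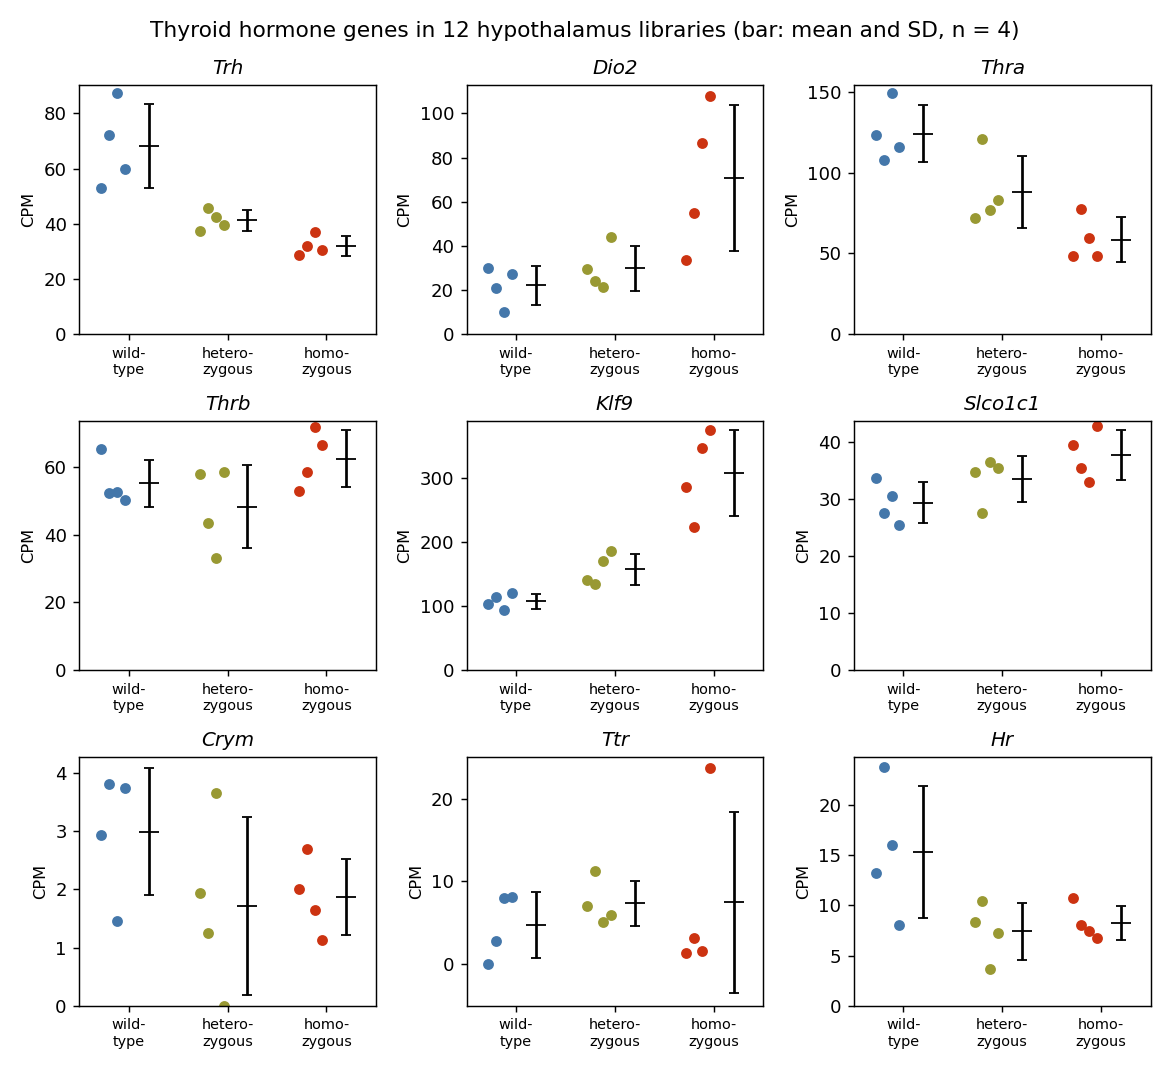
Level in CPM (y axis) of the 9 genes in each library (points) by genotype (x axis), with mean and SD beside the points (n = 4). Trh and Klf9 separate all 3 genotypes, with Trh at 52.8 CPM or above in wild-type and at 37.1 or below in homozygous libraries, and Klf9 at 120 or below in wild-type and at 224 or above in homozygous libraries. Homozygous and wild-type libraries did not overlap in 23.6% of all genes tested. The share was 9.34% for heterozygous against wild-type and 9.48% for homozygous against heterozygous libraries.

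Dio2, the deiodinase that makes the active hormone inside astrocytes and tanycytes, has its locus on chromosome 12, 90724552 to 90738438 (minus strand). Wild-type libraries held 30.1, 20.9, 10.2 and 27.4 CPM, heterozygous libraries 29.6, 24.2, 21.2 and 44 CPM, and homozygous libraries 33.5, 54.8, 86.5 and 108 CPM. Every homozygous library lies above the wild-type ones, replicate 1 by little and replicates 4 and 5 by much, and the heterozygous range overlaps both. Dio2 averaged 22.1 ± 8.83, 29.7 ± 10.1 and 70.8 ± 33.2 CPM (SD, n = 4 each). It rose by 1.62 on the log2 scale between wild-type and homozygous mice (SE 0.318, adjusted p = 0.000861) and by 1.21 between heterozygous and homozygous mice (SE 0.299, adjusted p = 0.0344). The difference between heterozygous and wild-type mice was 0.41 (SE 0.336, adjusted p = 0.622).

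The size of the Dio2 difference rests in part on homozygous replicates 4 and 5. Without them it was 1.02 (adjusted p = 0.0144) between homozygous and wild-type mice and 0.61 (adjusted p = 0.553) between homozygous and heterozygous mice. With the GC score as a covariate it was 0.63 (adjusted p = 0.27) and 0.47 (adjusted p = 0.744). Leaving out 1 library ended the homozygous against heterozygous call in 5 of 12 cases, namely heterozygous replicate 1 (1.22), 2 (1.11) or 3 (1.10) or homozygous replicate 4 (1.08) or 5 (0.96), with adjusted p of 0.0784 to 0.166.

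Dio2 reads come from glia and tanycytes, so markers of both were read beside it. Of 12 astrocyte markers 2 were higher (Aqp4 and Aldoc) and 3 lower (Gfap, Agt and Mlc1) in homozygous mice, where 25.4% of all genes tested were called. The 12 summed to 5050 to 6320 CPM in wild-type and 5840 to 7620 in homozygous libraries. Slc1a2 was the largest part of this sum, at 2550 to 3590 CPM in wild-type and 3050 to 4100 in homozygous libraries. Of 6 tanycyte and ependymal genes tested, Dio2 and Nes, an intermediate filament gene, were higher. Without Dio2 and Crym the summed level of that list was 108 to 149 CPM in wild-type and 108 to 161 in homozygous libraries. The tanycyte receptor Gpr50 ran at 30.8 to 40.9 and at 28.2 to 46.9 CPM, and the tanycyte factor Rax was at 0 in 8 of the 12 libraries. The part of these cells in the Dio2 difference was not tested. Dio2 also shares 100 exon bases, 1.72% of its own, with Gm26512 on the opposite strand, a gene without a line in the table.

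Thra encodes the hormone-binding receptor TR alpha and a splice form that does not bind hormone, which counts per gene do not separate. Its locus is chromosome 11, 98740638 to 98769006 (plus strand). Wild-type libraries held 123, 108, 149 and 116 CPM, heterozygous libraries 72, 121, 76.9 and 82.7 CPM, and homozygous libraries 48.3, 77.7, 59.3 and 48.5 CPM. All homozygous libraries lie below all wild-type ones, and heterozygous replicate 2 alone of its group reaches wild-type levels. Thra averaged 124 ± 17.5, 88 ± 22.1 and 58.5 ± 13.8 CPM (SD, n = 4 each). It fell by 1.06 on the log2 scale in homozygous against wild-type mice (SE 0.183, adjusted p = 0.000286). The other steps were −0.48 (SE 0.174, adjusted p = 0.203) for heterozygous against wild-type and −0.58 (SE 0.183, adjusted p = 0.0902) for homozygous against heterozygous mice. Leaving out heterozygous replicate 2 brought the heterozygous difference to −0.68 (adjusted p = 0.0425), and leaving out homozygous replicate 2 brought that between the mutants to −0.77 (adjusted p = 0.0167). Without homozygous replicates 4 and 5 the homozygous call held (−0.95, adjusted p = 0.00126), and with the GC score as a covariate it ended (−0.66, adjusted p = 0.0725).

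The end of Thra overlaps Nr1d1, a repressor of the circadian clock read from the opposite strand, over 263 exon bases, 5.7% of the exon bases of Thra. Whether the counts use strand is not given in the sources used here, so reads from this stretch cannot be assigned. Nr1d1 stood at 137, 156, 114 and 127 CPM in wild-type libraries and at 81.8, 116, 49.4 and 31.6 in homozygous ones. It fell by 0.86 on the log2 scale (SE 0.228, adjusted p = 0.00782), and without homozygous replicates 4 and 5 the difference was −0.41 (adjusted p = 0.0925). Among the homozygous libraries Nr1d1 was lowest in replicates 5 and 4, and Thra in replicates 1 and 5 (48.3 and 48.5 CPM). Both genes were highest in replicate 2 among the homozygous and among the heterozygous libraries. In wild-type libraries Thra was highest in replicate 3, where Nr1d1 was lowest. The part of the overlap in the Thra difference was not tested.

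Thrb encodes TR beta, the receptor tied most closely to feedback on Trh and on thyrotropin. Its locus is chromosome 14, 17660261 to 18038090 (plus strand). It averaged 55.1 ± 6.85, 48.2 ± 12.3 and 62.4 ± 8.34 CPM in wild-type, heterozygous and homozygous mice (SD, n = 4 each), and the groups overlap in every pair. Homozygous against wild-type mice its log2 fold change was 0.17 (SE 0.182, adjusted p = 0.531), and its sign flipped with library totals in place of TMM and with each correction for composition.

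The balance of the receptors was also taken within each library, as the ratio of Thra to Thrb counts (with 0.5 added to each), which does not depend on scaling. Its log2 was 0.91, 1.04, 1.5 and 1.19 in wild-type, 0.31, 1.47, 1.21 and 0.5 in heterozygous, and −0.13, 0.41, −0.27 and −0.45 in homozygous libraries. Every wild-type library had more Thra than Thrb counts, and 3 of 4 homozygous libraries had fewer. The mean log2 ratio was 1.16 ± 0.25 in wild-type and −0.11 ± 0.37 in homozygous mice (SD, n = 4 each), a difference of −1.27 with an exact two-sided permutation p of 0.0286, the smallest that 4 against 4 allows. Adjusted over the 3 pairs this exact permutation p is 0.0857, which does not pass. The ratio differed by −0.99 between homozygous and heterozygous mice (exact permutation p = 0.0571, adjusted 0.0857) and by −0.29 between heterozygous and wild-type mice (exact permutation p = 0.4). The transcripts differ in base composition, with 59.8% G and C in Thra and 44.1% in Thrb, so the ratio is not free of the GC score.

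**Figure D2:**
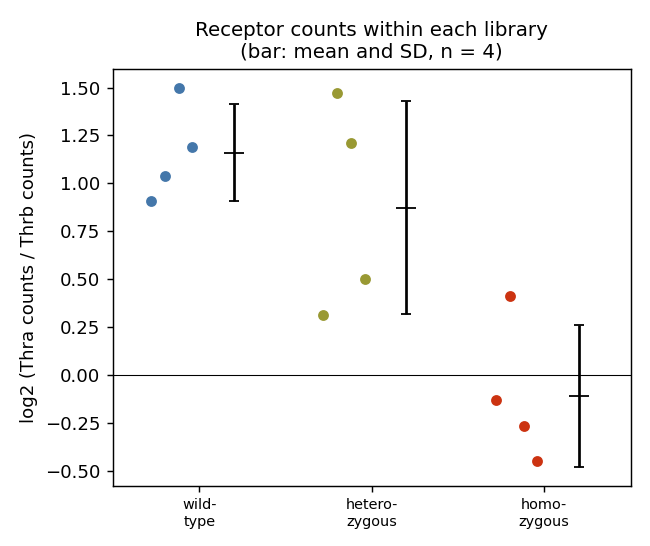
Log2 ratio of Thra to Thrb counts (y axis) in each library (points) by genotype (x axis), with mean and SD beside the points (n = 4). Wild-type libraries lie between 0.91 and 1.5, and homozygous libraries between −0.45 and 0.41.

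Hr encodes a corepressor of the thyroid hormone receptor and is itself induced by the hormone in brain. Its locus is chromosome 14, 70552212 to 70573548 (plus strand). With only 5 to 25 counts per library it stood at 13.2, 23.8, 16 and 8.08 CPM in wild-type, 8.36, 10.4, 3.66 and 7.22 in heterozygous, and 10.7, 8.08, 7.41 and 6.77 in homozygous libraries. Wild-type libraries reach higher, and wild-type replicate 5 lies among the mutants. The log2 fold changes from wild-type were −0.81 in homozygous (SE 0.346, adjusted p = 0.0866) and −0.93 in heterozygous mice (SE 0.339, adjusted p = 0.204). Without wild-type replicate 5 the homozygous value was −1.04 and was called (adjusted p = 0.0332).

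Slco1c1 encodes a carrier that brings thyroxine through brain endothelium and into astrocytes. Its locus is chromosome 6, 141524368 to 141570177 (plus strand). It averaged 29.4 ± 3.6, 33.6 ± 4.11 and 37.7 ± 4.4 CPM in wild-type, heterozygous and homozygous mice (SD, n = 4 each). The groups overlap, and the difference between homozygous and wild-type mice was 0.35 on the log2 scale (SE 0.184, adjusted p = 0.168). Beside it, 2 of 10 endothelial and pericyte markers were lower in homozygous mice (Pdgfrb and Vtn) and 0 higher, with summed levels of 375 to 397 CPM in wild-type, 324 to 382 in heterozygous and 337 to 376 in homozygous libraries. Over all genes tested, 11.6% were called lower and 13.7% higher.

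The binding proteins were close to the limit of these libraries. Ttr encodes transthyretin, the thyroxine carrier that choroid plexus secretes in bulk. It had 0 to 27 counts per library and stood at 0, 2.85, 8.02 and 8.08 CPM in wild-type, 7.07, 11.3, 5.13 and 5.91 in heterozygous, and 1.34, 3.14, 1.65 and 23.7 in homozygous libraries. Homozygous replicate 5 alone sets the homozygous mean, and the log2 fold change of 0.27 (SE 0.728, adjusted p = 0.819) became −1.14 without it (adjusted p = 0.249). Of 12 choroid plexus markers, Ttr included, 3 were tested and 1 was called: Prlr, the prolactin receptor, higher in homozygous mice (103 to 151 CPM in wild-type and 140 to 266 in homozygous libraries). Over all genes tested, 25.4% were called in this pair. Without Ttr the list summed to 152 to 192 CPM in wild-type, 166 to 201 in heterozygous and 186 to 306 in homozygous libraries. Prlr alone made up most of this sum in every library. Folr1 and Aqp1 were lowest, with 1 and 6 counts over all 12 libraries, while Clic6 had 418 and Kl 104. The part of choroid plexus in the Ttr values was not tested. Crym encodes mu-crystallin, which binds triiodothyronine in the cytosol (chromosome 7, 120186380 to 120202111, minus strand). It had 39 counts in all, 0 to 3.81 CPM per library, and was left out by the filter. In heterozygous replicate 4 it had 0 counts, which allows up to 1.97 CPM (3 counts).

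**Figure D3:**
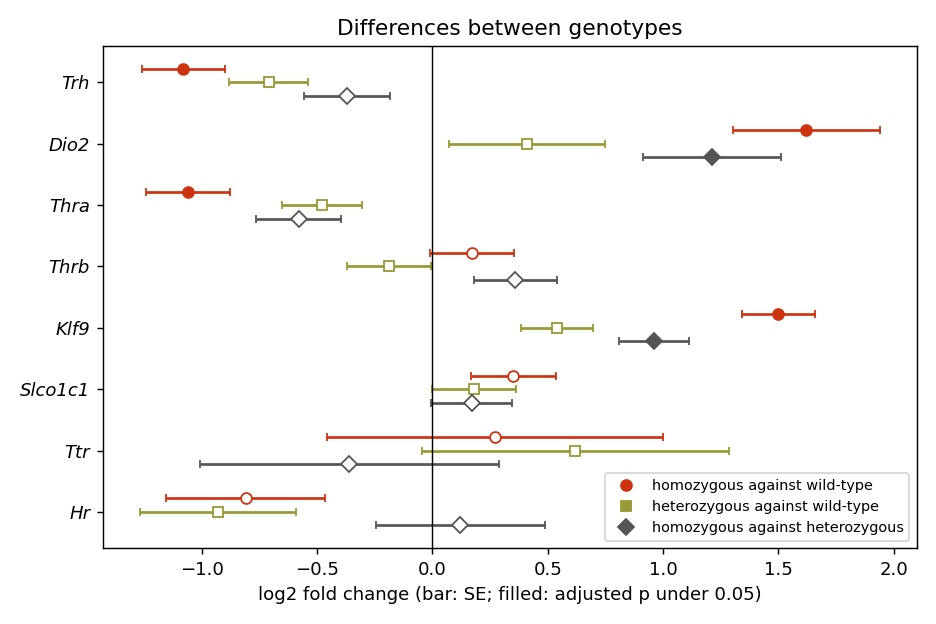
Log2 fold change (x axis; bar, SE) of the 8 genes tested (y axis) in the 3 pairs of genotypes; filled symbols passed an adjusted p under 0.05. Filled symbols run from −1.08 for Trh to 1.62 for Dio2, and those of the heterozygous against wild-type pair are all open.

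By edgeR 0 of the 8 genes were called between heterozygous and wild-type mice, against 0.596% of all genes tested (0.512% higher and 0.0838% lower). At an unadjusted p under 0.05 there were 4 (Trh, Thra, Klf9 and Hr), against 14.2% of all. DESeq2 called 2 (Trh and Klf9), against 4.52% of the 5288 genes to which it gave an adjusted p, and limma-voom 3 (these and Thra), against 3.67% of all genes. The comparison shares its wild-type libraries with that of homozygous mice. Trh and Klf9 were the 2 members whose heterozygous and wild-type libraries did not overlap, against 9.34% of all genes tested. Between homozygous and heterozygous mice 2 were called, Dio2 and Klf9, both higher, against 2.2% of all genes tested (1.74% higher and 0.456% lower).

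Per kilobase of exon, Trh was the most abundant of the set in wild-type hypothalamus, at 49.2 ± 11 CPM per kb (SD, n = 4). Thra (26.9 ± 3.8) and Klf9 (22.4 ± 2.39) followed, with means ± SD that overlap, and then Thrb (7.44 ± 0.925) and Slco1c1 (5.66 ± 0.694). Ttr (3.99 ± 3.37), Dio2 (3.81 ± 1.52) and Hr (2.21 ± 0.948) came next, neighbours in this order lying within their spread, and Crym was lowest (0.879 ± 0.321). In homozygous mice Klf9 led with 64 ± 14 CPM per kb, ahead of Trh (23.2 ± 2.57). Thra (12.7 ± 2.99) and Dio2 (12.2 ± 5.71) lay within their spread of each other, while in wild-type mice Thra was above Dio2 in every library. These levels assume even coverage of the exons, which counts per gene do not show.

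Base composition ran along with the differences between homozygous and wild-type mice over all genes tested. Of genes whose transcript holds under 45% G and C, 26.9% were called higher and 2.22% lower (median log2 fold change 0.25), while from 55% upward 3.08% were higher and 27% lower (median −0.42). Of the called members, Thra (59.8% G and C) and Dio2 (43.4%) fall in these outer bands, each on the side to which its band leans. Klf9 (47.5%) falls in the band of 45 to 50%, where 15.2% were called higher, and Trh (54.5%) in that of 50 to 55%, where 16.1% were called lower. Their log2 fold changes, 1.5 and −1.08, stand beside band medians of 0.06 and −0.19. Hr (61.6%), Ttr (46.5%), Thrb (44.1%) and Slco1c1 (43.1%) were not called. The part of composition in the members' differences cannot be told apart from genotype.

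**Figure D4:**
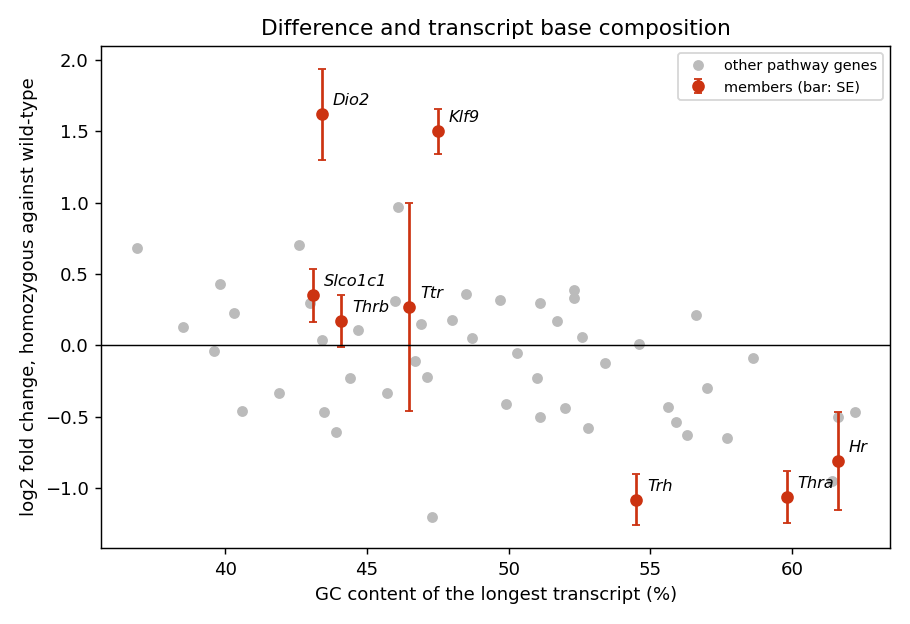
Log2 fold change, homozygous against wild-type (y axis; bar, SE for members) against the GC content of the longest transcript (x axis, percent) for the 8 members tested and other pathway genes tested (points). Of the called members, Dio2 and Klf9 lie at 1.62 and 1.5 with 43.4% and 47.5%, and Trh and Thra at −1.08 and −1.06 with 54.5% and 59.8%; Thrb and Ttr, not called, turn negative with a score for composition as covariate.

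**Figure D5:**
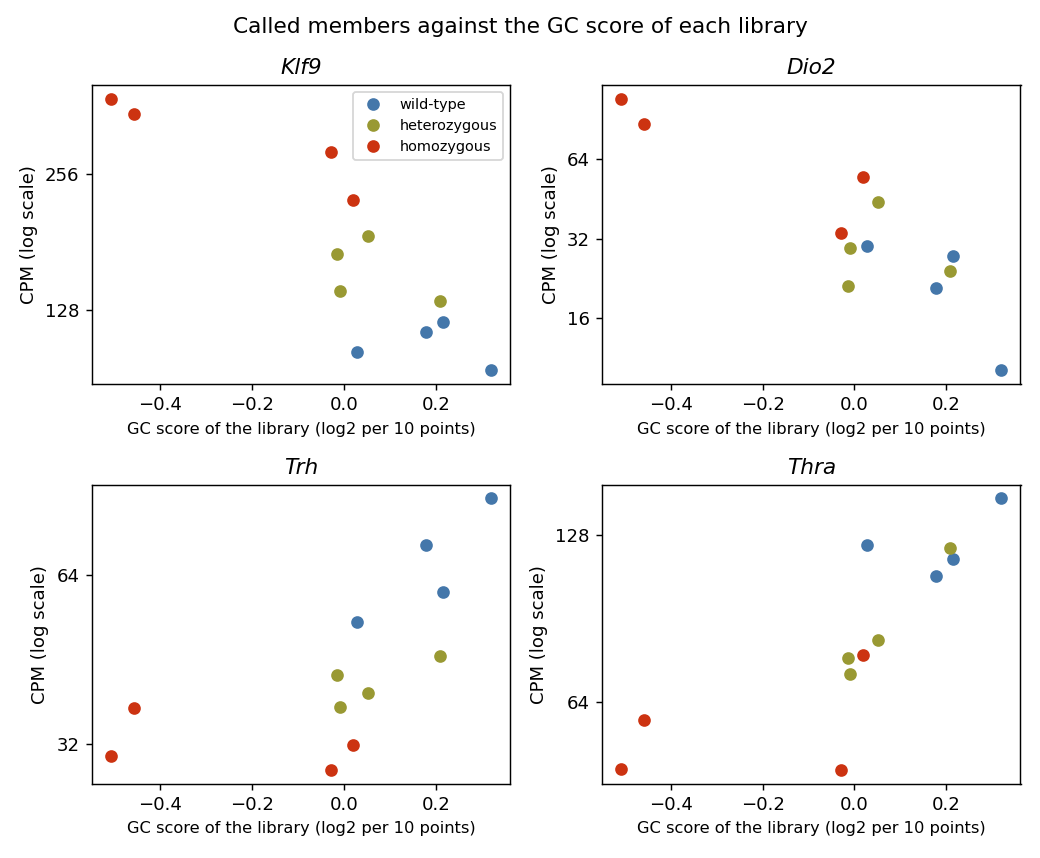
CPM (y axis, log scale) of the 4 called members against the GC score of the library (x axis, log2 CPM per 10 percentage points of GC), coloured by genotype. Homozygous replicates 4 and 5 lie far left at −0.457 and −0.507, where Klf9 and Dio2 have their highest values (347 and 376, 86.5 and 108 CPM); the scores of wild-type and homozygous libraries do not overlap.

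The wider thyroid hormone pathway was read from lists of 73 genes, all in the table, of which 56 were tested. Of these, 13 were called between homozygous and wild-type mice, 6 higher and 7 lower, or 23.2% against 25.4% of all genes tested. Leaving out the members it was 9 of 48 (18.8%), a share below the background, with a median log2 fold change of −0.07.

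On the list for TRH peptide making, receptors and breakdown, 1 of 9 genes tested was higher and 3 lower, Trh included. That is 44.4% called, against 25.4% of all genes tested. Pam, the enzyme that amidates the end of the peptide, fell by 0.41 (SE 0.109, adjusted p = 0.00892), from 311 ± 27.7 to 234 ± 9.9 CPM with no overlap (SD, n = 4). Trhde, the membrane peptidase that degrades TRH outside cells, rose by 0.70 (SE 0.231, adjusted p = 0.0283), from 39.8 ± 7.35 to 65.5 ± 19.2 CPM. Prepl, a peptidase-like protein whose action on TRH was not tested, fell by 0.33 (SE 0.104, adjusted p = 0.0209). The carboxypeptidase Cpe stood at 0.32 (SE 0.124, adjusted p = 0.058). Cpe was called without wild-type replicate 1 or homozygous replicate 1 or 2 (adjusted p = 0.0106 to 0.0478). None of Pam, Trhde and Prepl was called without homozygous replicates 4 and 5 (adjusted p = 0.054, 0.346 and 0.0598) or with the GC score (adjusted p = 0.236, 0.99 and 0.0795). The call of Trhde also ended without wild-type replicate 1, 3 or 5 or homozygous replicate 4 or 5 (adjusted p = 0.0512 to 0.118), and that of Prepl without wild-type replicate 1 or 2 or homozygous replicate 4 (adjusted p = 0.0656 to 0.0941). Among 4 factors of TRH neurons tested, Arnt2, the partner of Sim1, fell by 0.44 (SE 0.127, adjusted p = 0.0137), a call that ended in both of these settings and without wild-type replicate 3 or homozygous replicate 5 (adjusted p = 0.0619 and 0.0507). Pou3f2 (−0.23) and Creb1 (−0.04) were not called.

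Of 6 genes tested for deiodinases and their turnover, Dio2 was higher and Wsb1 lower. That is 33.3% called, Dio2 included, against 25.4% of all genes tested. Wsb1, the ubiquitin ligase adaptor that marks the Dio2 enzyme for degradation, fell by 0.47 (SE 0.163, adjusted p = 0.0373), from 129 ± 19.2 to 94.9 ± 22.4 CPM (SD, n = 4). Leaving out any 1 of wild-type replicates 1, 3 and 5, heterozygous replicate 1 and homozygous replicates 2 and 4 ended this call (adjusted p = 0.0523 to 0.145), as did the GC score (adjusted p = 0.0747). Usp33, which removes that mark, stood at 0.30 (adjusted p = 0.0764), its relative Usp20 at −0.54 (adjusted p = 0.0907), and Secisbp2, which serves the making of selenoproteins, at 0.39 (adjusted p = 0.32). Usp33 was called without wild-type replicate 2 (adjusted p = 0.0299), and Usp20 without homozygous replicate 1 or 2 (adjusted p = 0.0384 and 0.0408). Dio3, the deiodinase that inactivates the hormone, had 6 counts over all libraries and Dio1 had 0, which allows up to 1.25 to 3.39 CPM per library.

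Of the 7 transporters tested, edgeR, DESeq2 and limma-voom each called 0 between homozygous and wild-type mice, with 3, 3 and 2 at an unadjusted p under 0.05. Over all genes tested, edgeR called 25.4% in this pair, and 37.4% had an unadjusted p under 0.05. Those of lowest p besides Slco1c1 were the amino acid carriers Slc7a5 (−0.63, SE 0.238, adjusted p = 0.0529), Slc16a10 (−1.20, SE 0.473, adjusted p = 0.0655) and Slc7a8 (−0.58, SE 0.239, adjusted p = 0.077), followed by Slco1a4 (0.23, adjusted p = 0.32). With 1 library left out, Slc7a5 was called in 4 of 12 fits, without wild-type replicate 1 or 3, heterozygous replicate 2 or homozygous replicate 2 (adjusted p = 0.0039 to 0.0489). Slc16a10 was called without wild-type replicate 2 (−1.39, adjusted p = 0.041) and Slc7a8 without wild-type replicate 5 (−0.73, adjusted p = 0.0347). Among nuclear receptors Thra alone of 5 was called, with its partners Rxrb at −0.95 (adjusted p = 0.0859), Rxra at −0.30 (adjusted p = 0.308) and Rxrg at 0.01 (adjusted p = 0.99). Among 12 coregulators the corepressor Ncor1 alone was called, at 0.36 (SE 0.112, adjusted p = 0.0199). Its call ended without homozygous replicates 4 and 5 (adjusted p = 0.156), with the GC score (adjusted p = 0.569) and without wild-type replicate 3 or homozygous replicate 4 (adjusted p = 0.0703 and 0.0802). Tbl1x stood at 0.31 (adjusted p = 0.0725) and the coactivator Ep300 at 0.30 (adjusted p = 0.0966). Ep300 was called without homozygous replicate 5 (0.39, adjusted p = 0.0334), without homozygous replicates 4 and 5 (0.52, adjusted p = 0.00444) and with the GC score (0.56, adjusted p = 0.019).

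Of 12 genes tested that thyroid hormone is known to move in brain, 3 were higher and 1 lower. That is 33.3% called, against 25.4% of all genes tested (13.7% higher and 11.6% lower). The direction in which the hormone moves each gene was not compared. Besides Klf9, the synaptic scaffold gene Homer1 rose by 0.68 (SE 0.142, adjusted p = 0.00143), from 48.7 ± 2.08 to 78.3 ± 4.38 CPM with no overlap (SD, n = 4). Aldh1a1, which makes retinoic acid, rose by 0.97 (SE 0.313, adjusted p = 0.0253), from 60.4 ± 35.2 to 120 ± 30.1 CPM, and averaged 149 ± 69 CPM in heterozygous mice. This call was lost on leaving out any 1 of wild-type replicates 1, 2 and 3 and homozygous replicate 2 (adjusted p = 0.065 to 0.105). Reln, an extracellular guidance protein, fell by 0.50 (SE 0.141, adjusted p = 0.0119), and Stard4, a cholesterol carrier, stood at −0.61 (adjusted p = 0.077; called without wild-type replicate 5 or homozygous replicate 1, adjusted p = 0.0383 and 0.041). With the GC score Homer1 and Reln were not called (adjusted p = 0.067 and 0.242), nor was Reln without homozygous replicates 4 and 5 (adjusted p = 0.0834). Of 5 listed genes of the pituitary thyroid axis 0 passed the filter, with 39 counts of Tshb and 8 of Cga over all 12 libraries.

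Genes with the most similar profiles over the 12 libraries were found by the root mean square difference of centred log2 CPM, a description of likeness that carries genotype, depth and composition alike. Nearest to Klf9 were Bod1l (0.142), Nemf (0.163) and Zfp37 (0.166), and nearest to Thra were Efhd2 (0.14), Gdap1l1 (0.144) and Sv2a (0.145). Trh was most like Aatk (0.169), Cdh4 (0.172) and Stat5b (0.18). Dio2 had no neighbour as close, with Zfp711 (0.336), Slitrk6 (0.337) and Zdhhc24 (0.345) nearest.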

How the data were processed

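The deposited file holds raw counts per gene symbol, whole numbers with a different total in each of 12 libraries. Per the labels' protocols, total RNA was turned into cDNA with the Ovation RNA-Seq System V2 and read on a SOLiD 5500xl. The submitters' processing notes name mm10. How reads were aligned and counted, on which annotation and with or without strand, is not given in the sources used here; mm10 is the build of all positions. The labels' growth protocol and the series design differ in the number of hypothalami per genotype, and the 12 columns were followed. No homozygous label carries the number 5, so that column was placed by genotype only, and the homozygous label with the number 3 was not analysed here.

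Of the symbols, 20717 matched GENCODE M21 (GRCm38), 1895 more matched through older names and 1408 had no match. The test was edgeR (4.0.16, under R 4.3.3): default filter on low counts, TMM factors (0.908 to 1.08), and quasi-likelihood F tests on genotype in 1 fit of all libraries, with Benjamini-Hochberg adjustment over 10737 genes. The common biological coefficient of variation was 0.148. SE was taken from the size of the log2 fold change over √F. CPM use the TMM factors. The series design speaks of individuals, with nothing on litter or day. The alternatives were RLE, upper-quartile or no scaling factors, DESeq2 1.42.0, limma-voom 3.58.1, other filters, fits of 2 genotypes, each library left out, homozygous replicates 4 and 5 left out, the replicate number as a block, and corrections for transcript composition.

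Members, lists and tests were chosen with earlier results of these data known. All members are described. Of each pathway list up to 4 other genes of smallest p and at least 1 CPM are named, and, of members called in homozygous mice, the 3 genes nearest in profile among those of at least 10 CPM, passing over provisional gene models. A gene that this rule names is not reported here. Nr1d1 is named for its overlap with Thra, and marker genes named singly and genes with few counts were chosen after their values were seen. The marker lists for hypothalamic transcription factors, telencephalon, thalamus, pituitary, blood and oligodendrocytes had 1 of 8, 1 of 9, 3 of 8, 1 of 1, 2 of 2 and 3 of 8 tested genes called between homozygous and wild-type mice. Over all genes tested, 25.4% were called. In the same order of lists, 1, 1, 3, 0, 1 and 2 genes were called higher. The thalamus list summed to 675 to 876 CPM in wild-type, 786 to 1090 in heterozygous and 856 to 1190 in homozygous libraries. Its genes Prkcd and Tcf7l2 were highest in heterozygous replicate 4 (81.4 and 158 CPM). The part of dissection in these values was not tested.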

Additional observations from a re-analysis of the deposited data

Results flagged for a closer look

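In 2 of 27 groups of 4 libraries (9 genes, 3 genotypes) 1 library lay far from the others in CPM. Chance alone gives about 1 in 20. Thrb in wild-type replicate 1 was at 65.3 CPM, with the other wild-type libraries at 50.3 to 52.5. Ttr in homozygous replicate 5 was at 23.7 CPM (21 counts), with the other homozygous libraries at 1.34 to 3.14. The causes were not tested.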

How the results depend on the processing

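Between homozygous and wild-type mice 4 members were called, and 4 to 5 when 1 library was left out. This fell to 2 (Trh and Klf9) with the GC score and to 1 (Klf9) with the adenine score, added after seeing the data, settings in which the share called of all genes fell from 25.4% to 4.28% and 2.36%. Klf9 was called in every alternative, at 0.95 to 1.64. Heterozygous against wild-type calls went from 0 to 1 with the GC score or the GC offset, to 2 with no filter, only 2 genotypes, without homozygous replicates 4 and 5, or DESeq2, and to 3 with limma-voom (0 to 2 with 1 library left out). The share of all genes, 0.596%, was 1.46% to 4.52% in these settings. Homozygous against heterozygous calls went from 2 to 1 with library totals, only 2 genotypes, limma-voom or the replicate block, and to 0 with the GC score, the adenine score, or without homozygous replicates 4 and 5 (1 to 3 with 1 library left out). Over all genes the calls in this pair went from 236 to 138, 44, 78 and 15 in the first 4 settings and to 1 in each of the last 3. Pathway calls went from 13 to 23 with library totals, 8 with the GC score and 5 with the adenine score. Leaving out 1 library gave 9 to 18.

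Library totals moved the median of all genes from −0.03 to −0.19 and the share of higher among called genes from 54.2% to 29.5%, and upper-quartile factors moved that share to 44%. In homozygous against wild-type mice some values changed sign. With the GC score: Thrb −0.112, Ttr −0.485, Cpe −0.127, Sim1 −0.178, Usp20 0.271, Slco1a4 −0.045, Rxra 0.276. With the adenine score: Thrb −0.142, Ttr −0.573, Trhde −0.116, Cpe −0.202, Sim1 −0.282, Usp20 0.433, Slc7a5 0.036, Slco1a4 −0.079, Rxra 0.378. With the GC offset: Thrb −0.012, Slco1a4 −0.082, Rxra 0.072. With library totals Thrb was −0.002 and Rxrg −0.156, with upper-quartile factors Rxrg −0.058, with limma-voom Rxrg −0.029. Without homozygous replicates 4 and 5 Ttr was −1.018 and Rxra 0.020. With 1 library left out Ttr ran from −1.136 to 0.694 (from −1.762 to 0.009 against heterozygous), Hr from −0.073 to 0.365 against heterozygous, Creb1 from −0.115 to 0.035 and Rxrg from −0.373 to 0.216. The causes were not tested.

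The replicate numbers were not taken to pair the libraries. Across genes, deviations of same-numbered libraries correlated at −0.265, 0.0952 and 0.0135 for homozygous and wild-type (numbers 1, 2 and 5), 0.0867, 0.0778 and −0.0779 for heterozygous and wild-type (1, 2 and 3), and −0.111, 0.337 and 0.0335 for homozygous and heterozygous mice (1, 2 and 4). With the number as a replicate block Rxrg turned to −0.241, and between homozygous and heterozygous mice Dio2 was at 0.87 (adjusted p = 0.121). Depth limits Crym, Ttr and Hr, with at most 27 counts per library.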
